A study of Drosophila melanogaster with 8 samples.

Results

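Of 11773 genes measured in 8 RNA-sequencing libraries of Dh44 neurons, 23 were abundant in a single library and close to absent from the rest. They were chosen from the measured values: 100 FPKM or more in exactly 1 library and below 1 FPKM in each of the other 7. FPKM is a fragment count divided by exon length and by the mapped fragments of the library. Gene symbols beginning with snoRNA:, tRNA: or sncRNA: were left out. The 23 genes are 0.195% of the genes measured. The levels that chose them are given here as a description, and no test was made of them.

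The libraries came from dissected brains of Drosophila melanogaster with the genotype DH44-GAL4;UAS-mCD8gfp, which puts a membrane-bound green fluorescent protein in cells that use the DH44 driver line. The flies were on normal food and 5 days old. All 8 libraries belong to this group, with no second cell type, genotype or diet, and the labels name no animals. One label speaks of individual cells and another of cells pooled in place, so the number of cells behind a library is not settled here, and fewer cells of a type cannot be told apart from less RNA per cell.

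Dh44 neurons are peptide-secreting cells. Dh44, diuretic hormone 44, is related to vertebrate corticotropin-releasing factor, and its neurons in the median part of the brain lie beside the insulin-producing cells. The genes named below belong to several families. Neuropeptides are released as hormones or co-transmitters, gustatory receptors and odorant-binding proteins serve chemical sensing, and microRNAs and spliceosomal RNAs act without being translated.

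Dh44 itself was at 26309 to 99818 FPKM, so every library carried the marker of the picked cells. Summed FPKM lay between 812029 and 935440, and read depth is unknown. Library 1 had the fewest genes at 1 FPKM or more, 2518, and library 8 had 3798, against a median of 4855.5. Of 9 pan-neuronal genes measured, 8 reached 1 FPKM in library 8 and 9 in every other library. Their levels summed to 1021 FPKM in library 8, the lowest sum, with a median over the 8 libraries of 3028 FPKM.

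The 23 genes were unevenly spread over the libraries. Library 4 held 7 of them, library 1 held 6, library 3 held 4 and library 8 held 3. Libraries 2, 5 and 6 held 1 each, and library 7 held none. Their levels ran from 102.1 to 3694 FPKM with a median of 209.6 FPKM, and 2 of them were above 1000 FPKM. In the ranking of all genes of their own library they stood between rank 28 and rank 964. Together they made up little of any library, at most 0.52% of summed FPKM in library 4, with a median of 0.0797% over the 8 libraries.

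**Figure D1:**
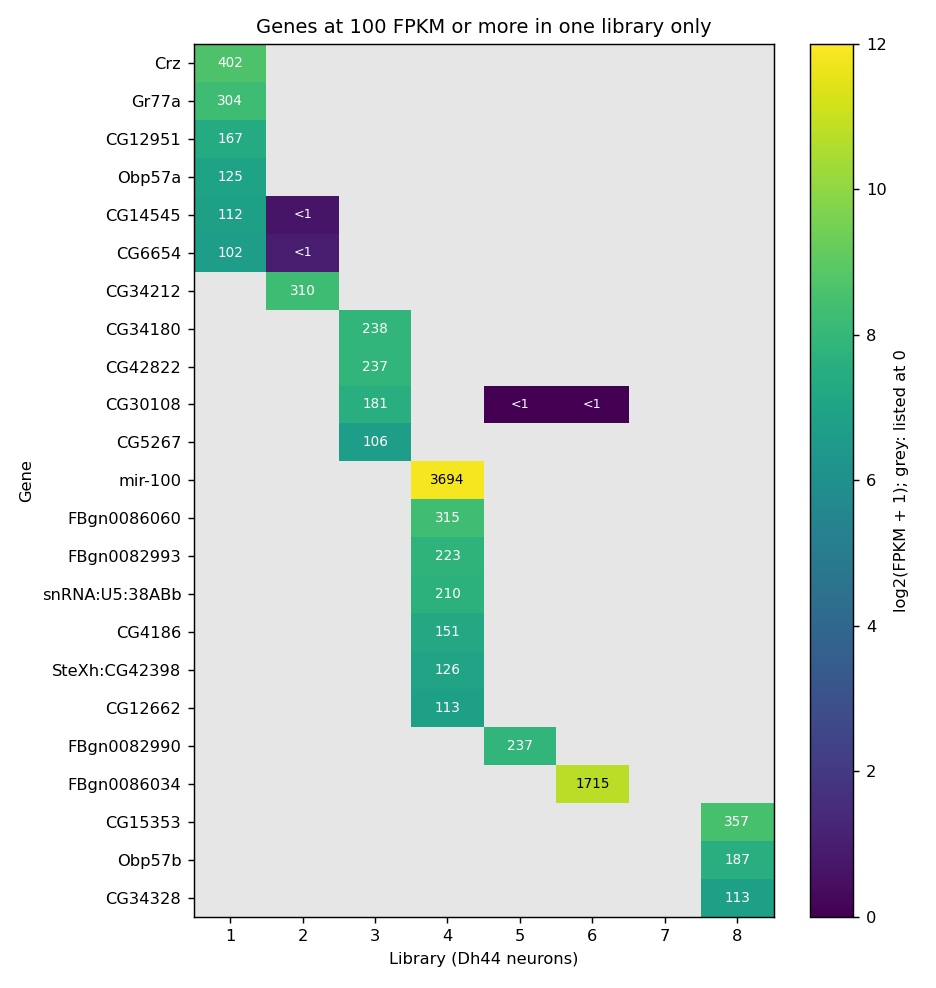
Level of each of the 23 genes in libraries 1 to 8, with colour giving log2(FPKM + 1) and the printed number giving FPKM. Grey cells are listed at 0. Of the 161 values outside the high library, 157 are listed at 0, and library 7 holds no high value.

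Outside the library in which they were high, the genes were almost always listed at 0. Of 161 such values, 157 were exactly 0, and 20 of the 23 genes were listed at 0 in all 7 other libraries. CG6654 was at 0.905 FPKM and CG14545 at 0.588 FPKM in library 2. CG30108 had 2 values above 0, in libraries 5 and 6, neither above 0.000170 FPKM. On the log2(FPKM + 1) scale the median distance from the highest to the second library was 7.72, a size that the pseudocount of 1 largely sets because most second values are 0. An exact 0 in these files is a listing and may not be an absence.

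By kind, 17 of the 23 are protein-coding genes, 2 are short noncoding RNA genes, and 4 are identifiers with no symbol in the gene name table. Of the coding genes 12 carry only a CG number and 5 carry a name: Crz, Gr77a, Obp57a, Obp57b and SteXh:CG42398. The 12 are 70.6% of the 17, against 48.6% of all coding genes measured that carry only a CG number. The coding genes lay between 102.1 and 402.4 FPKM, with a median of 167.4 FPKM.

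Crz encodes corazonin, a neuropeptide of the adipokinetic hormone family that lateral neurons of the adult brain make and that is known from stress and metabolic control. It was at 402.4 FPKM in library 1 and listed at 0 in libraries 2 to 8. It had the highest level of all coding genes among the 23. In library 1 it stood at rank 310 of all genes, far below Dh44 at 42712 FPKM and Gpb5, a glycoprotein hormone subunit, at 4405 FPKM.

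Some other peptide genes of library 1 were of a similar level to Crz. There Ilp2, an insulin-like peptide gene, was at 858.5 FPKM, Nplp3 at 496.2 FPKM and Akh, the adipokinetic hormone gene, at 283.5 FPKM. Each of these was also found elsewhere, whereas the thresholds required Crz to be below 1 FPKM in all other libraries. Ilp2 and Nplp3 reached 1 FPKM in all 8 libraries and Akh in 7. Of 19 genes measured on a list of neuropeptides other than Dh44 and Gpb5, Crz was the only one that met the rule. In library 1, 11 of the 19 were listed at 0. The gene (FBgn0013767) spans bases 14314854 to 14315716 of chromosome 3R, plus strand, in assembly BDGP6.54. Its exon blocks number 2, with 654 bases in all.

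Gr77a, a member of the gustatory receptor family of taste and internal chemical sensing, was at 303.6 FPKM in library 1 and listed at 0 in libraries 2 to 8. Among 58 gustatory receptor genes measured, 11 reached 1 FPKM in some library, and 8 of these did so in a single library. Over all 11773 genes, 1328 (11.3%) reached 1 FPKM in exactly 1 library, and 8 of 58 is near that share. Of the 58, only Gr77a and Gr43a reached 100 FPKM in any library. Gr43a, a receptor for fructose with a known role in the brain, differed: it was at 46.3 to 199.6 FPKM in libraries 2 to 8 and listed at 0 in library 1. The library that held Gr77a was thus the one without Gr43a. That library also had the fewest genes at 1 FPKM or more, 2518. A set of 9 genes at 100 FPKM or more in every other library was below 1 FPKM there. The 0 of Gr43a in library 1 was therefore not particular to this gene, and a link between Gr77a and Gr43a was not tested.

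Gr77a spans bases 20737569 to 20739430 of chromosome 3L, minus strand, inside CG13252 on the opposite strand, and shares no exon base with it. CG13252 was listed at 0 in library 1. Because its exons are 1396 bases long, Gr77a had the highest level of the 19 annotated genes once length was put back, at 423.9 FPKM × kb (FPKM times exon length in kilobases, a value proportional to the share of a library's fragments).

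Obp57a and Obp57b encode odorant-binding proteins, small secreted proteins that carry hydrophobic molecules in chemosensory organs and in other tissues. Obp57a was at 125.1 FPKM in library 1 and listed at 0 elsewhere. Obp57b was at 187.3 FPKM in library 8 and listed at 0 elsewhere. The genes are neighbours on the plus strand of chromosome 2R, Obp57b from 20504251 to 20505136 and Obp57a from 20505150 to 20505758, with 13 bases between them. Each was thus high in a library in which its neighbour was listed at 0. The thresholds put any members of different libraries below 1 FPKM in each other's library, so this is no separate result.

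The third gene of this group, Obp57c, ends 48 bases before Obp57b. It was at 117.1 and 76.6 FPKM in libraries 1 and 8, those of the other genes, and also at 72.0 FPKM in library 3. Libraries 7 and 6 had 16.1 and 7.63 FPKM of it, and it was listed at 0 in libraries 2, 4 and 5. The 2 highest values of Obp57c thus fell in libraries 1 and 8. Fat body and olfactory support genes also had their 2 largest sums there, as did the glia, hemocyte (blood cell) and immune peptide lists. Not every list member went that way: Obp56d was listed at 0 in library 8 and Ilp6 at 0 in library 1. The glial gene repo was listed at 0 in both, and the hemocyte gene Pxn at 0 in library 8. Of 22 immune peptide genes measured, 11 were listed at 0 in library 1 and 11 in library 8. The fat body list summed to 59155 FPKM in library 1 and 72765 FPKM in library 8, against a median of 25420 FPKM over all 8. The olfactory and gustatory support list summed to 7326 and 20536 FPKM there, against a median of 3614 FPKM. The part of such RNA in the Obp57 values was not tested.

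**Figure D2:**
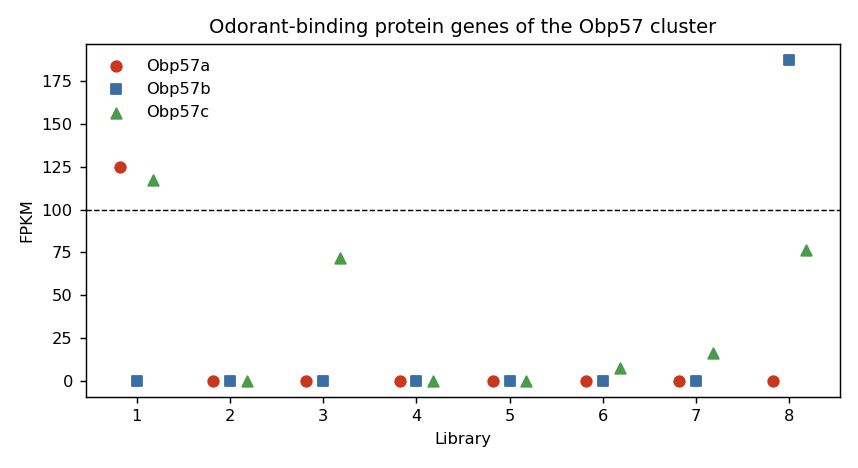
FPKM of Obp57a, Obp57b and Obp57c in libraries 1 to 8, with 1 point per gene and library and a dashed line at 100 FPKM. Obp57a is above 0 in library 1 only and Obp57b in library 8 only, while Obp57c is above 0 in 5 libraries.

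Of 43 odorant-binding protein genes measured, 17 reached 1 FPKM in some library, 5 of these did so in a single library, and 9 reached 100 FPKM. Those 5 of 43 are near the 11.3% of all genes that reached 1 FPKM in exactly 1 library. Besides Obp57a and Obp57b, the 5 were Obp56a, Obp56b and Obp56i, at 4.26 FPKM in library 6, 17.6 in library 4 and 18.8 FPKM in library 6. Obp99a was at 585 to 12509 FPKM and above 1 FPKM in all 8 libraries. Obp83g missed the rule by 1 library, at 242.4 and 225.0 FPKM in libraries 1 and 4, and was listed at 0 in the other 6.

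The remaining coding genes of library 1 were CG12951, CG14545 and CG6654. CG12951 was at 167.4 FPKM in library 1 and listed at 0 elsewhere. Its neighbour CG16749, 553 bases away on the same strand, was also seen in a single library, but another one, at 27.3 FPKM in library 7. CG14545 was at 112.1 FPKM in library 1, and CG6654 at 102.1 FPKM in library 1. The exons of CG6654 overlap those of Mau2 on the opposite strand by 71 bases. The use of strand in counting is not given in the sources, so reads from such partners cannot be told apart.

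Library 2 held only CG34212, at 309.6 FPKM there and listed at 0 in the other 7. It is a short gene of 358 exon bases on chromosome 2R.

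Library 3 held 4 genes with CG numbers only. CG34180 was at 238.5 FPKM, CG42822 at 237.1, CG30108 at 181.4 and CG5267 at 106.0 FPKM. For CG34180 and CG30108 the nearest measured gene on the same strand also peaked in library 3. CG13995 was at 177.7 FPKM in library 3, against 1.45 to 79.8 FPKM in the other libraries, and lies 340 bases from CG34180. CG30109 was at 78.3 FPKM in library 3, against 0 to 37.1 FPKM elsewhere, and lies 81 bases from CG30108. The part of these neighbours' reads in the 2 values was not tested. The exons of CG34180 also overlap ND-51 on the opposite strand by 97 bases.

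CG42822 had no such company. Of the 7 measured genes within 5000 bases of it, 6 were listed at 0 in every library, and CG42821 was at 26.8 FPKM in library 5 alone. CG5267 lies inside unc-104, the gene of an axonal kinesin motor, on the opposite strand. unc-104 was at 172.4 FPKM in library 3 and at 44.7 to 246.5 FPKM in the others, so the library that held CG5267 was not the highest for unc-104.

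Library 4 held the highest value of all, mir-100 at 3694 FPKM, rank 28 of that library. This microRNA belongs to the let-7 complex, in which let-7, mir-100 and mir-125 are cut from a shared primary transcript that ecdysone controls. mir-125 was listed at 0 in all 8 libraries, library 4 included, and the let-7 hairpin was not analysed here. The annotated mir-100 precursor is 100 bases long and lies wholly within the exons of lncRNA:let7C, which was not analysed here, so reads of the long transcript and of the hairpin cannot be told apart. It spans bases 18471434 to 18471533 of chromosome 2L. At 100 bases, its level corresponds to 369.4 FPKM × kb, below that of Gr77a.

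The second noncoding gene was snRNA:U5:38ABb, a copy of the U5 RNA of the spliceosome, at 209.6 FPKM in library 4 and listed at 0 in the other 7. U5 RNA is made from several near-identical genes, so the copy that gave the reads is uncertain. Of 7 U5 copies measured, 3 were above 1 FPKM in some library. snRNA:U5:23D was at 92.5 FPKM in library 4 only, and snRNA:U5:63BC was at 273.9 and 110.9 FPKM in libraries 5 and 6. The other 4 were listed at 0 throughout.

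SteXh:CG42398 belongs to the Stellate family, repeated X-linked genes related to a subunit of casein kinase 2 and known from the testis, where small RNAs silence them. It was at 125.8 FPKM in library 4 and listed at 0 elsewhere. The other 12 of 13 Stellate genes measured were listed at 0 in all 8 libraries. The copies are nearly identical, so the one assigned the reads is uncertain, and it sits on an unplaced scaffold. Library 4 also had the largest sum of the testis list, 100.5 FPKM over 9 genes measured, of which 3 reached 1 FPKM, against a median of 2.06 FPKM over all 8. The share of testis-type RNA in the Stellate value was not tested.

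CG4186 was at 150.6 FPKM and CG12662 at 113.3 FPKM in library 4, and both were listed at 0 elsewhere. CG12662 lies inside rdgA, the diacylglycerol kinase gene known from photoreceptors, on the opposite strand. On the same strand lncRNA:CR43836 also spans CG12662, but was not analysed here. rdgA was itself highest in library 4, at 21.6 FPKM, against 0.132 to 4.70 FPKM in the others. The gene sick, which spans snRNA:U5:38ABb on the same strand, was likewise highest in library 4, at 45.8 FPKM, against 0 to 20.7 FPKM. The 3 measured genes within 5000 bases of CG4186 were at 10.9 to 33.2 FPKM in library 4, and none was highest there.

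The 4 identifiers without a symbol were FBgn0086060 at 315.5 FPKM and FBgn0082993 at 223.0 FPKM in library 4, FBgn0082990 at 236.9 FPKM in library 5 and FBgn0086034 at 1715 FPKM in library 6. All were listed at 0 in the other 7 libraries. With no symbol, the exclusion of small RNAs could not be applied to them, and their length is unknown. Libraries 5 and 6 held no other gene of this kind, so without these identifiers 19 genes in 5 libraries remained.

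Library 8 held CG15353, Obp57b and CG34328. CG15353 was at 357.3 FPKM there and listed at 0 elsewhere, the second highest coding gene after Crz. It overlaps the antisense noncoding gene asRNA:CR45712 by 246 exon bases of its 350, and that gene was not analysed here. Its neighbour on the same strand, CG33543, 449 bases away, ran otherwise, with 36.4 FPKM in library 8, against 24.3 to 332.4 FPKM elsewhere. CG34328 was at 112.6 FPKM in library 8 and lies inside Nt5b, a nucleotidase gene, on the same strand. Nt5b was at 41.5 FPKM in library 8 and reached 161.5 FPKM in library 4, where CG34328 was listed at 0.

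Of 18 annotated genes with a measured gene within 5000 bases, 10 had one at 1 FPKM or more in the library concerned and 8 had none. Counted singly, measured genes within 5000 bases of an annotated gene, and not themselves among the 23, gave 43 pairs of a neighbour and the library concerned, and 12 of these (27.9%) were at 1 FPKM or more. Over all genes, weighted over the same libraries, the figure was 33.8%. CG42822 alone gave 7 of the 43 pairs, all below 1 FPKM. In 6 of the 43 pairs the neighbour had its highest level in the library concerned. The like count over all genes was not made.

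Short exons were a feature that most of the coding genes shared and that the thresholds did not name, although length enters FPKM as the divisor. The 17 coding genes had a median exon length of 615 bases, with a range of 350 to 2262. All coding genes measured had a median of 1718 bases. Of the 17, 15 were under 1000 bases (88.2%), against 22.5% of the 756 coding genes that reached 100 FPKM in exactly 1 library but 1 FPKM or more in another. Of the 21 genes at 100 FPKM or more in 7 libraries and below 1 FPKM in the last, 71.4% were under 1000 bases. Among the 270 genes of known length at 100 FPKM or more in all 8, the share was 43.7%. Short exons were thus not particular to the 17. Of the 17, CG6654, at 2262 bases, was the longest and also the lowest in FPKM.

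The same order appeared among all genes seen in only 1 library. There were 1328 genes at 1 FPKM or more in exactly 1 library, 11.3% of those measured, with a median level of 6.36 FPKM. Their median exon length was 2018 bases for levels of 1 to 10 FPKM, 1491 bases for 10 to 50, 903.5 bases for 50 to 100, and 578 bases for the 23 genes at 100 FPKM or more, 19 of which have a length. The plot of exon length against level shows this slope.

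**Figure D3:**
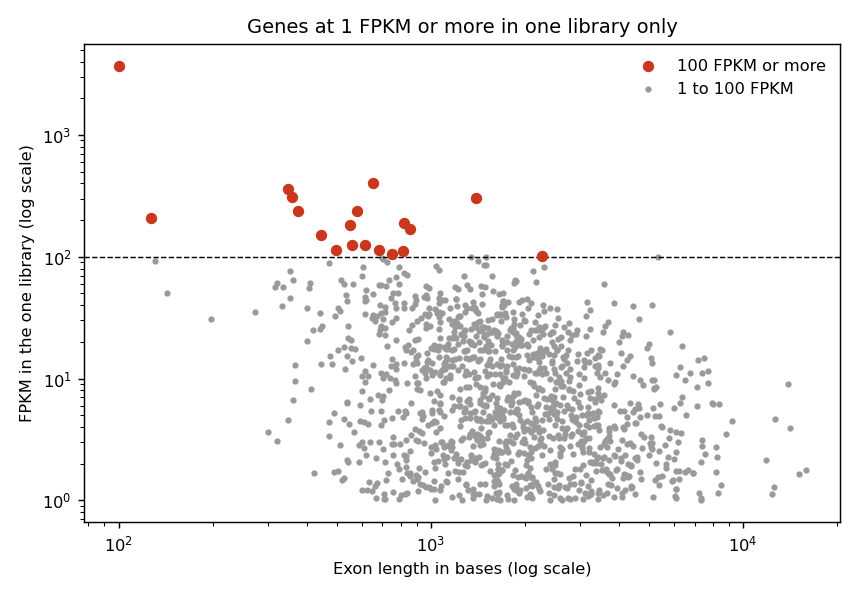
Exon length in bases against FPKM in the 1 library where the gene reached 1 FPKM, both on log scales, for genes detected in a single library. Red points are the 19 genes of known length at 100 FPKM or more, of which 17 have exons under 1000 bases. Grey points are the rest.

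When the same thresholds were applied to FPKM × kb, which removes the length divisor, 24 genes met them. Only 9 of these were among the 23: Crz, Gr77a, CG12951, CG34212, CG30108, CG42822, mir-100, CG15353 and Obp57b. The 4 identifiers without a symbol have no known length and could not enter, so at most 19 could be shared. The other 15 had exons of 1342 to 13899 bases, against 100 to 1396 bases for the 9. They included fab1 in library 7, a library with no gene under the original thresholds, at 103.1 FPKM × kb. Among the 17 coding genes, FPKM × kb ran from 55.9 for CG34328 to 423.9 for Gr77a, with a median of 100.1. The exon lengths are those of BDGP6.54 and may differ from the ones behind the deposited values.

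The number of genes of this kind did not follow the number of genes detected. Library 1 had the fewest genes at 1 FPKM or more and 47 that were seen nowhere else, and 6 of those 47 (12.8%) were at 100 FPKM or more. Library 4 had the most genes detected and 406 seen nowhere else, of which 7 (1.72%) were that high. Library 7 had 147 such genes and none at 100 FPKM. The median level of genes seen in only 1 library was 11.8 FPKM in library 1 and 5.02 to 9.42 FPKM in the others.

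**Figure D4:**
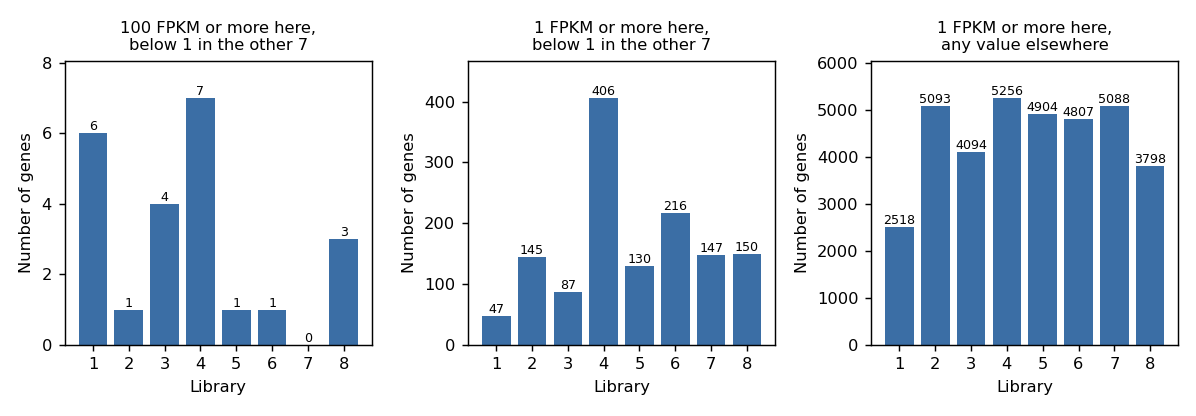
Number of genes per library: at 100 FPKM or more with the other 7 libraries below 1 FPKM (left), at 1 FPKM or more with the other 7 below 1 FPKM (middle), and at 1 FPKM or more with any value elsewhere (right). Library 1 is lowest in the middle and right panels, at 47 and 2518 genes, and second in the left panel with 6.

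Abundance in a single library with near absence elsewhere was the exception among genes high in 1 library. There were 789 genes at 100 FPKM or more in exactly 1 library, 6.7% of those measured. Of these, 23 (2.92%) were below 1 FPKM in every other library, and 145 (18.4%) were at 1 FPKM or more in all 7 others. Library 1 had 228 of the 789, against 49 to 118 in the others.

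**Figure D5:**
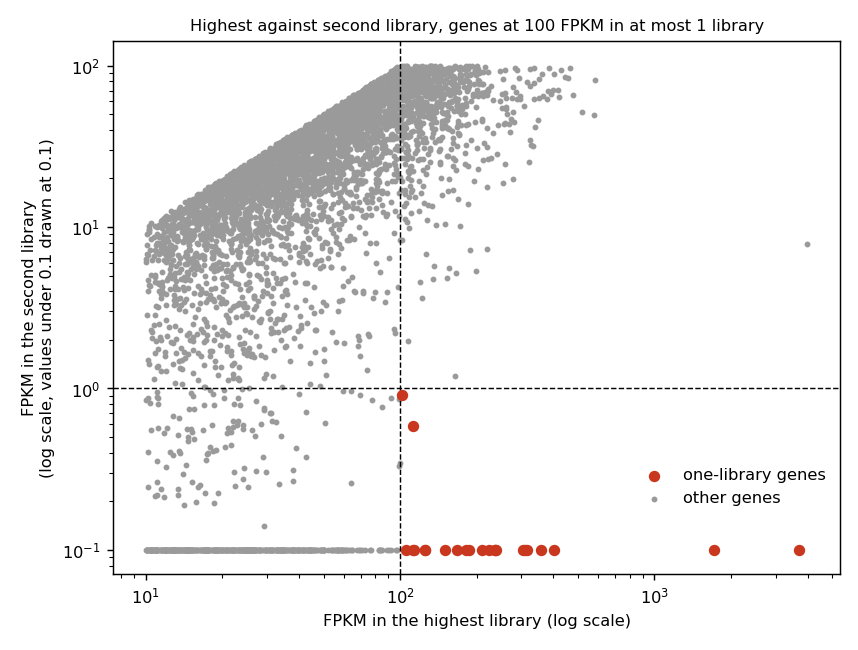
FPKM in the highest library against FPKM in the second library, on log scales, for genes at 10 FPKM or more in some library and at 100 FPKM or more in at most 1. Dashed lines mark 100 and 1 FPKM, red points are the 23 genes, and values under 0.1 FPKM are drawn at 0.1. All but CG6654 and CG14545 lie at the bottom, a place that the thresholds and the drawing floor set. Below the 1 FPKM line also lie 470 grey genes at 10 to 50 FPKM and 56 at 50 to 100 FPKM.

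Genes high in all libraries but 1 were of a similar number. There were 21 genes at 100 FPKM or more in 7 libraries and below 1 FPKM in the last, 0.178% of those measured. They fell differently: 11 were missing from library 8, 9 from library 1 and 1 from library 4. Among those missing from library 1 were mRpL33, of the mitochondrial ribosome, at 379.7 to 949.4 FPKM elsewhere, and Cox17, a copper chaperone of cytochrome oxidase, at 212.7 to 429.9 FPKM. Missing from library 8 were NdufA3, of respiratory complex I, at 164.8 to 532.7 FPKM elsewhere, and AP-2sigma, of the clathrin adaptor, at 189.8 to 687.1 FPKM. BomS1, a bomanin immune peptide gene, was missing from library 4. All 21 are coding genes, with a median exon length of 751 bases. A further 7 genes were at 100 FPKM or more in exactly 2 libraries and below 1 FPKM in the other 6, and 280 were at 100 FPKM or more in all 8.

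The thresholds cut through a continuous range at the upper end. Just inside were CG6654 at 102.1, CG5267 at 106.0 and CG14545 at 112.1 FPKM. Just outside were Prm at 99.96 FPKM in library 1, GNBP2 at 99.3 FPKM in library 8 and CG31457 at 98.9 FPKM in library 6, all below 1 FPKM elsewhere. A further 53 genes of that kind lay between 50 and 100 FPKM. At the lower threshold the next genes were CG3909, at 164.6 FPKM in library 1 with 1.20 FPKM in its second library, CG42700, at 107.2 FPKM in library 3 with 1.98 FPKM, and CG15561, at 122.0 FPKM in library 4 with 3.66 FPKM.

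Of 209 markers measured from 18 lists, covering neurons, peptides, glia, eye, fat body, blood, muscle, trachea, gut, germline, accessory gland, immune and stress genes, Crz was the only one that met the rule. That is 0.478% of the markers, against 0.195% of all genes. By chromosome the 19 annotated genes lay on 2R (5), 3R (5), 2L (4), 3L (2) and X (2), with SteXh:CG42398 on its scaffold. In that order the shares were 26.3%, 26.3%, 21.1%, 10.5% and 10.5%. Over all annotated genes measured they were 20.3%, 24.5%, 18.8%, 19.7% and 16.1%. A further 33 genes met both thresholds but carry small RNA symbols and were left out, and all 33 have exons under 250 bases.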

How the data were processed

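RNA was sequenced from 8 libraries of Dh44 neurons, all of 1 group. The authors deposited 1 FPKM value per gene and library. Per the labels' protocols, complementary DNA was amplified by a modified SMART-seq2 method and sheared, and per the series text reads were cleaned and mapped to the Drosophila genome. TopHat is named in the submitters' processing notes. Its version, the build, annotation and strand setting are not given in these sources. The values are model estimates (the smallest above 0 was 9.13e-317), from which whole reads were not recovered, so depth is unknown and no counting interval is given.

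Of 11773 identifiers, 11646 matched the supplied gene name table and 127 did not. Coordinates, exon lengths (merged exons) and overlaps came from the Ensembl release 115 annotation of assembly BDGP6.54. The thresholds were applied with Python 3.11.15, pandas 2.3.3 and numpy 2.4.6; the step was checked on made-up input with known answers. Logarithms are log2(FPKM + 1). With 1 group, no animal named and members chosen by these values, no test was made, and the spread is that between libraries, which may be technical. Members and gene lists were chosen with earlier results of these data known. All members were named, with the genes nearest to each threshold, and other genes (neighbours, hosts and family members) were named after their values were seen. Alternatives were other thresholds, rescaling, filters on length, overlap and symbol, other pseudocounts and each library left out. No sequence was used.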

Additional observations from a re-analysis of the deposited data

Results flagged for a closer look

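A screen of 44 items asked whether the extreme library lay far from its nearest neighbour, by Dixon's ratio of gap to range at its 95% level for 8 values, and 18 items passed. In normal data about 1 in 20 would do so by chance, and FPKM is skewed towards high values. The 23 genes themselves were not screened, since they were chosen for standing apart in 1 library. The 44 items are 8 measures of the libraries, 18 marker lists and 18 genes named beside the members. Those genes were named after their values were seen. CG16749 and CG42821 were above 0 in 1 library only, so they were certain to pass. The number of items that passed therefore cannot be set against the rate of 1 in 20.

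Library 8 had the fewest genes at 100 FPKM or more, 745 against a median of 974 in the others. It also had the largest summed level of the photoreceptor list (8418 FPKM against 1596), the olfactory and gustatory support list (20536 FPKM against 3502) and the immune peptide list (75642 FPKM against 19091). Most of the photoreceptor sum was Rh5 (3995 FPKM) and ninaE (2543 FPKM). Of the 19 photoreceptor genes measured, 5 were listed at 0 there, and norpA had its lowest level there, 7.99 FPKM. Of the 22 immune peptide genes measured, 11 were listed at 0 in library 8. Obp99a was at 12509 FPKM there, against a median of 1863 FPKM.

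Library 1 had 228 genes at 100 FPKM or more that no other library had at that level, against a median of 71. Its lens and pigment cell list summed to 206.2 FPKM against 45.9, and its ovary and germline list to 524.9 FPKM against 51.0. The former was all santa-maria (145.7 FPKM) and w (60.5 FPKM), with the other 4 of 6 genes measured listed at 0. Most of the latter was Vm34Ca (364.4 FPKM), and 7 of its 11 genes measured were listed at 0 in library 1. CG33543 was at 332.4 FPKM there against 70.2 FPKM. Library 4 had 406 genes detected nowhere else, against a median of 145. Its testis list summed to 100.5 FPKM against 1.48, rdgA was at 21.6 FPKM against 2.80, and sick at 45.8 FPKM against 12.6.

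Library 3 had a sum of 33782 FPKM for the list of other neuropeptides, against 4401, and CG13995 at 177.7 FPKM against 65.1. Most of that sum was the insulin-like peptide genes Ilp5 (15383.5 FPKM), Ilp3 (10275 FPKM) and Ilp2 (7261 FPKM). Of the 19 genes measured on the list, 8 were listed at 0 in library 3. In library 7 the accessory gland list summed to 37.8 FPKM, all of it Acp63F with the other 8 measured genes at 0, and CG16749 was at 27.3 FPKM, each with a median of 0 in the others. CG42821 was at 26.8 FPKM in library 5, against a median of 0.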

How the results depend on the processing

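No paired analysis was possible because all 8 libraries form 1 group. The number of genes moved beyond 1.5 times its reported 23 under 4 of 20 alternatives. It was 79 with an upper threshold of 50 FPKM, 12 with 200 FPKM, 56 with small RNA symbols kept and 15 with overlapping or unannotated genes left out. Leaving out each library in turn gave 18 to 32. The library with most of the genes was library 4 as reported, and library 1 became the first, or tied for first, under rescaling of the libraries to an equal sum, with exons of 250 bases or more only, with overlapping genes left out, without identifiers lacking a symbol, and without library 3, 4, 7 or 8, so their order is not settled. The share of genes in the library with most, 30.4% as reported, ran from 24.1% to 46.2%, the highest without library 4. Applying the thresholds to FPKM × kb, an alternative chosen after seeing the data, gave 24 genes but shared only 9 with the 23. This setting removed the length divisor and also the 4 identifiers of unknown length, so at most 19 could be shared. The 21 genes missing from 1 library became 55 at 50 FPKM and 4 at 200 FPKM, with 21 to 31 when a library was left out. The median log2 distance between the highest and second library, 7.72 as reported, was 11.0 with a pseudocount of 0.1, 4.46 with 10 and 6.13 at 50 FPKM, with 7.35 to 7.81 when a library was left out. The median share of summed FPKM, 0.0797% as reported, became 0.565% with small RNA symbols kept, 0.140% at 50 FPKM, 0.0469% at 200 FPKM, 0.0381% with exons of 250 bases or more only and 0.0332% with overlapping genes left out, with 0.0703% to 0.175% when a library was left out (0.137% without library 5, 0.175% without library 8). Depth is unknown, so a value of 0 has no stated limit.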

Other observations

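Without library 4, 10 further genes met the thresholds over the remaining 7 libraries, the most for any library left out, and 6 of them were high in library 1: CG10222 (254.5 FPKM), CG31301 (218.9 FPKM), CG31706 (219.1 FPKM), CG9896 (135.9 FPKM), Nuf2 (126.2 FPKM) and Obp83g (242.4 FPKM). These names were chosen after their values were seen. Among the 7 genes confined to 2 libraries, the pairs of libraries differed: CG13071 was at 317.8 and 218.8 FPKM in libraries 4 and 5, CG13054 at 140.7 and 803.2 FPKM in libraries 4 and 6, CG15202 at 149.9 and 152.9 FPKM in libraries 2 and 4, and CG17738 at 112.4 and 253.4 FPKM in libraries 7 and 8.

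Of the 15 genes that met the thresholds only in FPKM × kb, beat-IIIa, an immunoglobulin-type surface protein gene, had the second highest value, 176.8 FPKM × kb in library 6, after Nepl4, a neprilysin-like peptidase gene, with 191.7 FPKM × kb in library 1. Pph13, a homeobox gene known from photoreceptors, had 119.3 FPKM × kb in library 8. The summed photoreceptor list was also highest there, but Rh5 and ninaE made up most of that sum. Of the 19 genes measured on the list, 5 were listed at 0 in library 8. Hr4, a nuclear receptor gene, had 126.6 FPKM × kb in library 4.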
